A study of Mus musculus with 6 samples.

Results

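The genes described here are the classical cadherins Cdh1, Cdh2, Cdh3, Cdh4, Cdh5, Cdh6 and Cdh11, the lipid-anchored cadherin Cdh13 and the catenins Ctnna1 and Ctnnd1. They were taken by symbol from a table of 47729 genes, and all 10 were found. The study sequenced total RNA of the BALB/c mouse mammary carcinoma lines 4T1 and 4TO7, with 3 libraries for each. Both were grown untreated in DMEM with 10% fetal bovine serum. The comparison is of 1 line with 1 other line, and the labels do not say whether the 3 libraries came from separate cultures, so p-values here measure library-to-library spread that may be technical in origin. Values are normalised counts (a gene's reads over the size factor of its library), given as mean ± SD with n = 3 per line. In every library 1 read corresponded to a value of 0.936 to 1.05.

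Classical cadherins are transmembrane receptors that hold neighbouring cells together by binding the same cadherin on the next cell in the presence of calcium. Inside the cell, the cadherin tail binds p120-catenin (Ctnnd1), which keeps the cadherin at the surface, and beta-catenin (Ctnnb1) or plakoglobin (Jup), which in turn binds alpha-catenin (Ctnna1) and through it the actin cytoskeleton. E-cadherin (Cdh1) is the main cadherin of luminal mammary epithelium and P-cadherin (Cdh3) that of its basal layer, whereas N-cadherin (Cdh2) and cadherin 11 (Cdh11) are known from mesenchymal and neural cells.

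The libraries held 33605566 to 39072639 reads assigned to genes. 4TO7 replicate 2 stood apart from its line, with r = 0.980 and 0.978 to the other two 4TO7 libraries, which correlated with each other at 0.993 (log2 values across genes). Of 9 markers of mammary epithelium, 8 were tested and all 8 were higher in 4T1, where 25.1% of all genes tested were. Krt19, Krt14 and Cldn3 had no 4TO7 library at the minimum value of 10 for testing, so these met it through 4T1 and had to differ. Cldn4 had 1, replicate 3 at 14.9, and met the minimum largely through 4T1. Krt8 and Krt18, keratins of simple epithelia, were still present in 4TO7 at 21578 ± 3811 and 13535 ± 4763, and the basal keratin Krt5 had 1 read in all. Of 6 leukocyte markers, 2 were tested and both were higher in 4T1, Csf1r having met the minimum through 4T1 alone, and none of 4 smooth muscle markers reached the filter. The sum of the 9 epithelial markers was 178234 to 201304 in 4T1 and 25701 to 42265 in 4TO7, and its part in the cadherin results was not tested.

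Of the 8 cadherins, Cdh1 and, at a far lower level, Cdh3 were both higher in 4T1. None of the others among the 8 reached a value of 10 in any library, and Cdh2, Cdh4 and Cdh6 had no reads in either line. The catenins moved little beside them: Ctnnd1 was 1.61-fold higher in 4T1 and Ctnna1 did not pass the test. A gene was tested if its value was at least 10 in at least 3 of the 6 libraries, which 4 of the 10 members and 14276 genes in all met. The test was limma on log2(value + 1), two-sided, with Benjamini-Hochberg adjustment over those genes. Of the 4 tested members, 3 were called higher in 4T1 at an adjusted p under 0.05, where 25.1% of tested genes were. Cdh3 met the filter through 4T1 alone and had to differ, and of the other 3 tested members 2 were called. No member was called higher in 4TO7, where 23.9% of tested genes were. That count was 0 at adjusted p, 0 at an unadjusted p under 0.05 and 0 in the authors' deposited table. Either direction was called for 49.0% of tested genes. The values of the lines did not overlap for Cdh1, Cdh3 and Ctnnd1, all higher in 4T1, beside 29.8% of tested genes in that direction and 58.4% in either. The authors' deposited table gives an adjusted p for Cdh1, Cdh3, Cdh5, Cdh11, Ctnna1 and Ctnnd1. Of these, the same 3 members, Cdh1, Cdh3 and Ctnnd1, passed and were lower in 4TO7. Over all genes with an adjusted p there, 39.1% passed in either direction.

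**Figure D1:**
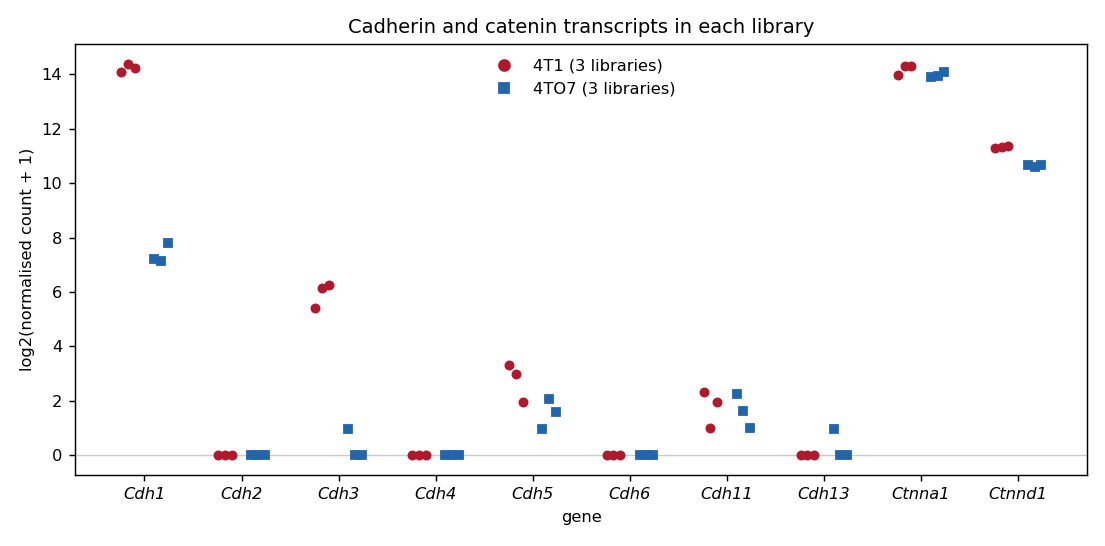
Each point is 1 library, red circles for 4T1 and blue squares for 4TO7, with log2(normalised count + 1) on the vertical axis and the 10 genes on the horizontal axis. The lines separate widely at Cdh1 and Cdh3, narrowly at Ctnnd1 and not at Ctnna1, and Cdh2, Cdh4 and Cdh6 lie at 0 in all 6 libraries.

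Cdh1 (ENSMUSG00000000303, GRCm38 chromosome 8, 106603351 to 106670246, plus strand) had 17314, 21548 and 19193 normalised counts in 4T1 replicates 1 to 3. In 4TO7 replicates 1 to 3 it had 149, 139 and 221. The lowest 4T1 library lay far above the highest 4TO7 library. The ratio of the means was 114, and the fitted log2 fold change was 6.85 ± 0.20 (SE), with limma adjusted p = 1.37e-07. Leaving out any 1 library moved the ratio between 105 and 134. The authors' deposited table gives a log2 fold change of -6.83 ± 0.22 (SE) for 4TO7 over 4T1. In bulk RNA, fewer cells with the transcript and less transcript per cell cannot be told apart.

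A low Cdh1 signal remained in every 4TO7 library, 133 to 222 reads. The 4TO7 mean was 0.877% of the 4T1 mean, and the single 4TO7 libraries lay between 0.720% and 1.14% of it. Other epithelial genes that were abundant in 4T1 kept smaller portions: Epcam, an epithelial adhesion molecule, kept 0.140%, Cldn4, a tight junction claudin, 0.103% and Krt7, a keratin, 0.0322%. For Epcam and Krt7 even the highest 4TO7 library, at 0.199% and 0.0448%, was below the lowest for Cdh1. Krt18 and Krt8 kept 21.6% and 45.4%. The portion kept thus differed from gene to gene.

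Cdh3 (ENSMUSG00000061048, chromosome 8, 106510891 to 106557297, plus strand) had 41.4, 69.7 and 76.3 normalised counts in the 4T1 libraries. In 4TO7 it had 1 read, in replicate 1, and none in replicates 2 and 3. The groups did not overlap, but Cdh3 passed the filter through 4T1 alone and so had to differ. The ratio of the reads was 189.8, with an exact 95% interval of 33.7 to 7536 that covers counting error only. The fitted log2 fold change of 5.62 ± 0.41 (limma adjusted p = 1.43e-05) depends on the pseudocount, at 6.42 with a pseudocount of 0.5 and 3.91 with 4. The ratio of the means, 200.3 over all libraries, was 133.5 without 4TO7 replicate 2 or 3, and 4TO7 had no reads without replicate 1.

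Cdh3 and Cdh1 are neighbours on the same strand, 46053 bases apart in the GENCODE M21 annotation, with the predicted single-exon gene Gm10073 as the 1 protein-coding model between them. The protein-coding genes around them were taken by position after the member values were seen. Of these, the nearest ones with reads on each side and the one between did not pass the test. Zfp90, a zinc finger gene upstream of Cdh3, had 760.5 ± 47.4 in 4T1 and 745 ± 76.2 in 4TO7 (limma adjusted p = 0.87). Gm10073 had 127 ± 25.0 and 119 ± 7.48 (limma adjusted p = 0.779). Tango6, downstream of Cdh1, had 310 ± 26.7 and 267 ± 58.2 (limma adjusted p = 0.402). Farther out, Smpd3, a sphingomyelinase gene, was 6.23-fold higher in 4TO7 at low levels, 22.7 ± 4.57 against 3.64 ± 1.21 (limma adjusted p = 0.000731). Has3, a hyaluronan synthase gene, was 10.4-fold higher in 4T1 at 163 ± 48.0 against 15.6 ± 3.97 (limma adjusted p = 7.41e-05), and Chtf8 1.66-fold higher (limma adjusted p = 0.00416). 6030452D12Rik had no reads. Of the 10 members, 5 lie on chromosome 8.

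**Figure D2:**
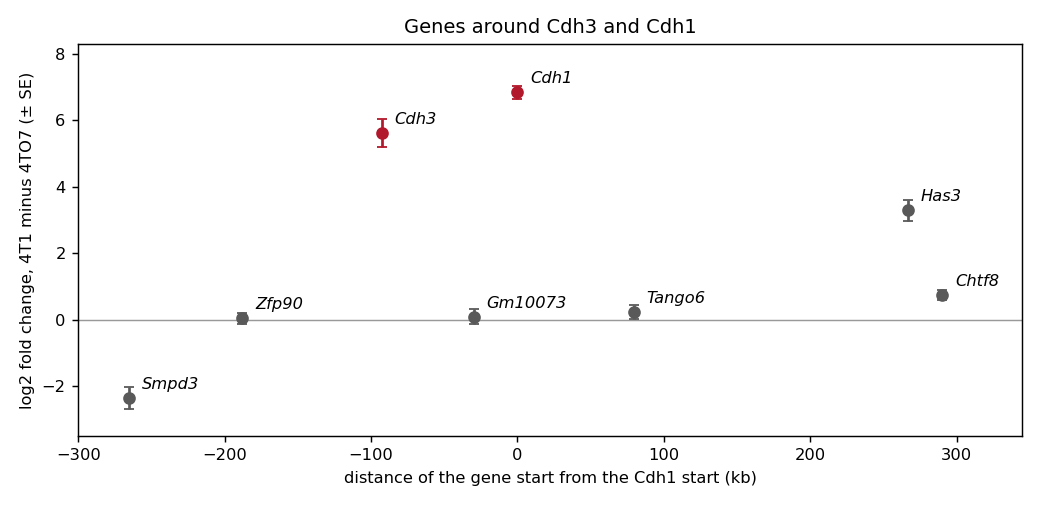
Points are the limma log2 fold changes, 4T1 minus 4TO7, with standard error bars, of the tested protein-coding genes around Cdh3 and Cdh1, placed by the distance of their start from the Cdh1 start in kilobases. Cdh3 and Cdh1 (red) stand at 5.62 and 6.85 while the nearest tested genes, Zfp90, Gm10073 and Tango6, lie near 0. Farther out, Smpd3 stands at -2.36, Has3 at 3.29 and Chtf8 at 0.73.

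The 5 tested genes whose pattern was most like that of Cdh1 were Shtn1, St14, Gnb4, Arhgef16 and Marveld2. Likeness was the Euclidean distance between log2(value + 1) profiles over the 6 libraries, each centred on its own mean. The distance was 0.30 for Shtn1, 0.34 for St14, which encodes the membrane protease matriptase, 0.40 for Gnb4, 0.45 for Arhgef16 and 0.52 for Marveld2, which encodes a protein of tricellular junctions. Their ratios of means, 108 to 131, lay around that of Cdh1, which follows from choosing genes by the smallest distance. Shtn1 had 5249 ± 739 in 4T1 and 40.0 ± 7.65 in 4TO7, and St14 had 9581 ± 891 and 87.1 ± 24.3. No tested member had a fitted fold change toward 4TO7, so no such list was made for that direction.

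Cdh2, Cdh4 and Cdh6 had 0 reads in all 6 libraries, of 114704105 reads in 4T1 and 104742527 in 4TO7. A count of 0 allows up to 3 reads per line (counting error alone). Cdh2, the N-cadherin gene (ENSMUSG00000024304, chromosome 18, 16588877 to 16809246), thus had no detectable transcript in the line with little Cdh1 or in the line with much. R-cadherin (Cdh4, chromosome 2) and K-cadherin (Cdh6, chromosome 15) belong to the neural and kidney cadherins. Cdh13 (T-cadherin), which has no cytoplasmic tail, had 1 read, in 4TO7 replicate 1.

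Cdh5, the cadherin of endothelial junctions (chromosome 8, 104101625 to 104144511), had 9, 7 and 3 reads in the 4T1 libraries and 1, 3 and 2 in the 4TO7 libraries. The lines overlapped, and the exact permutation test of the normalised counts gave p = 0.2 (two-sided), where 3 against 3 cannot go below 0.1. The ratio of the reads was 3.16 (exact 95% interval 1.21 to 9.68, counting error only). Of 9 endothelial markers, 2 were tested and neither was called. The sum of all 9 was 280 to 371 in 4T1 and 337 to 413 in 4TO7, most of it Egfl7. Pecam1 had 5 to 9 reads in every library, Kdr had 1 read in 4T1 replicate 3 and 1 in 4TO7 replicate 3, and Cldn5 had none. Vwf, the gene of von Willebrand factor, was not tested and lay the other way from Cdh5 without overlap, with 2, 1 and 0 reads in 4T1 and 16, 6 and 54 in 4TO7. The part of these markers in the Cdh5 values was not tested.

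Cdh11 (chromosome 8, 102632095 to 102785642) had 4, 1 and 3 reads in 4T1 and 4, 2 and 1 in 4TO7. The lines overlapped almost entirely, at 2.64 ± 1.54 and 2.28 ± 1.38 normalised counts (exact permutation p = 0.7, two-sided). In the authors' deposited table neither Cdh5 nor Cdh11 passed, with adjusted p = 0.246 and 0.925. Of 8 fibroblast markers, 2 were tested, Pdgfra and Pdgfrb, and both were higher in 4TO7, where 23.9% of all genes tested were. For Pdgfrb the lines overlapped, with 12.55 in 4T1 replicate 3 and 10.5 in 4TO7 replicate 2. Pdgfra had 1706 in 4TO7 replicate 2, against 6700 and 7452 in replicates 1 and 3. The sum of all 8 markers was 590 to 1372 in 4T1 and 1721 to 7522 in 4TO7. Dcn had 2, 1 and 3 reads in 4T1 and 17, 3 and 27 in 4TO7. Col1a1, a fibrillar collagen gene, lay the other way, with 9, 9 and 13 reads in 4T1 and 7, 1 and 5 in 4TO7. Neither was tested, and Col3a1, Lum and Thy1 had none in any library.

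To compare cadherins with each other, each value was divided by the length of the gene's annotated exons (Cdh1 4.57 kb, Cdh3 4.38 kb). Cdh1 stood at 4231 ± 464 normalised counts per kb in 4T1, Cdh3 at 14.2 ± 4.23, and Cdh5 at 2.16, 1.66 and 0.689 in replicates 1 to 3. Their order was the same in every 4T1 library, without overlap. In 4TO7, Cdh1 stood at 37.1 ± 9.76 per kb, and Cdh3, Cdh5, Cdh11 and Cdh13 were all below 1. Cdh1 thus made up 99.6% ± 0.060 of the summed level of the 8 cadherins in 4T1 and 97.6% ± 1.03 in 4TO7 (exact permutation p = 0.1, the smallest this design allows, and 0.167 adjusted over the 5 cadherins with reads). The largest share of any other cadherin of the 8 in a 4TO7 library was 2.38%, of Cdh5 in replicate 2, which rests on 3 reads.

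The shares in 4TO7 changed when the 15 other cadherins of a related list were added to the sum, an alternative chosen after the values were seen. Over these 23 genes the summed level was 4409 ± 469 per kb in 4T1 and 108 ± 16.8 in 4TO7, a ratio of 40.8. Cdh1 kept 95.9% ± 0.55 of it in 4T1 and 34.0% ± 3.62 in 4TO7 (exact permutation p = 0.1, and 0.13 adjusted over the 13 cadherins with reads). Cdh24, a type II classical cadherin named here after its value was seen, held 41.5% ± 15.3 in 4TO7, and Cdh15, the muscle cadherin, 14.5% ± 13.4. In 4TO7 replicate 3 Cdh15, at 29.5%, was above Cdh24, at 24.3%. In the 4T1 libraries Cdh24, at 99.9 to 121 per kb, and Cdh17, at 23.3 to 46.9, both stood above Cdh3, at 9.44 to 17.4. Per kb, Cdh24 had 48.3, 50.5 and 30.8 in 4TO7 replicates 1 to 3 and Cdh1 had 32.5, 30.5 and 48.3. Cdh24 was above Cdh1 in replicates 1 and 2 and below it in replicate 3. Cdh24 was itself higher in 4T1, at 390 ± 38.3 normalised counts against 151 ± 37.6 (2.59-fold, limma adjusted p = 0.00202).

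**Figure D3:**
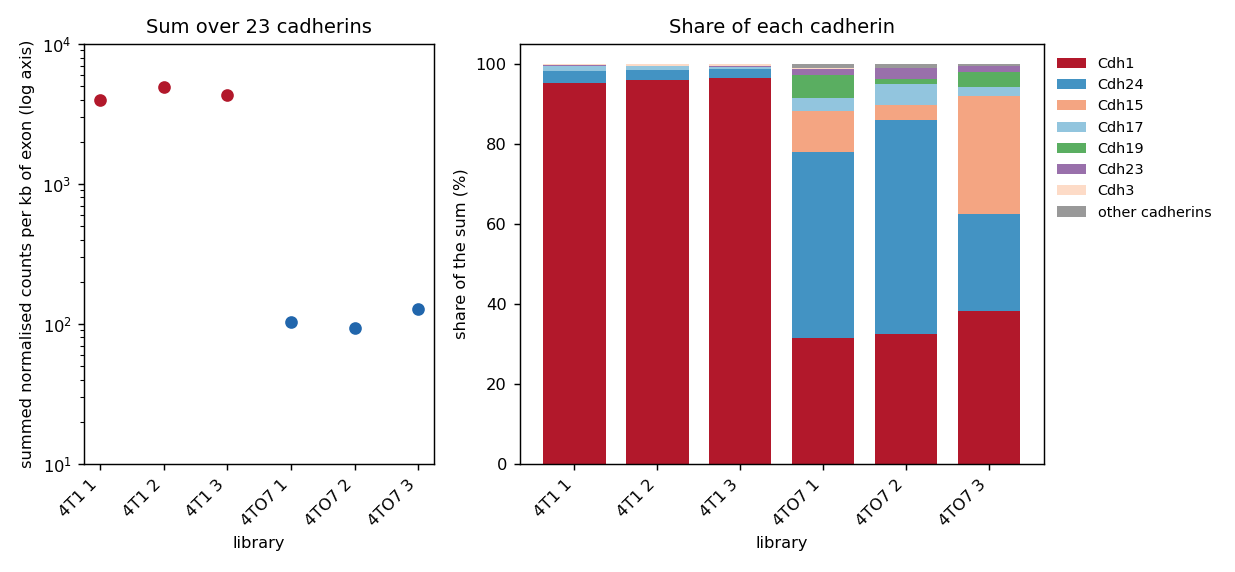
The left panel gives the sum of normalised counts per kb of exon over 23 cadherins in each library on a log axis, and the right panel the percent share of each cadherin in that sum. Cdh1 fills most of each 4T1 bar, and Cdh1, Cdh24 and Cdh15 fill most of each 4TO7 bar at a sum that is 40.8-fold lower.

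Of the 15 other cadherins, 5 were tested: 4 passed toward 4T1 and 1 toward 4TO7, beside 25.1% and 23.9% of all genes tested. The 5 tested had a median log2 fold change of 2.18, against 0.03 over all genes tested, and 7 of the 15 had no reads. The 1 higher in 4TO7 was Cdh15, with 34.6, 11.5 and 121 normalised counts in 4TO7 replicates 1 to 3 and 0, 2.99 and 2.90 in 4T1 (28.5-fold, limma adjusted p = 0.0059). Replicate 3 was far above the other two 4TO7 libraries, and the ratio was 11.8 without 4TO7 replicate 3 and 19.0 without 4T1 replicate 1. Cdh17, the liver-intestine cadherin, was 9.91-fold higher in 4T1 at 168 ± 56.2 against 17.0 ± 4.39. Cdh23, an adhesion protein of hair cells of the inner ear, was 4.62-fold higher in 4T1. Cdh10 had 27.6 ± 6.23 in 4T1 and no reads in 4TO7, at least 27.8-fold higher against 3 reads over the line. Cdh10 and Cdh15 passed the filter through 1 line alone and had to differ. Cdh19, also named after its values were seen, had 27, 5 and 20 reads in 4TO7 and none in 4T1, and was not tested.

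Ctnna1, alpha-catenin (ENSMUSG00000037815, chromosome 18, 35118859 to 35254779), had 16028, 20216 and 20129 normalised counts in 4T1. In 4TO7 it had 15319, 15816 and 17371. Replicate 1 of 4T1 lay among the 4TO7 values, so the lines overlapped. The log2 difference was 0.21 ± 0.14 (SE; 95% interval -0.11 to 0.53) with limma adjusted p = 0.239, which leaves room for a fold of 0.929 to 1.44. The authors' deposited table gives adjusted p = 0.33. Its exons share 95 bases with the antisense gene Lrrtm2, which averaged 6.93 in 4T1 and 0 in 4TO7.

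Ctnnd1, p120-catenin (ENSMUSG00000034101, chromosome 2, 84600071 to 84650765), had 2493, 2578 and 2667 normalised counts in 4T1. In 4TO7 it had 1635, 1534 and 1623. The values within each line were the tightest of the tested members, with coefficients of variation of 3.38% and 3.45%, and the lines did not overlap. The log2 fold change was 0.69 ± 0.12 (SE; 95% interval 0.41 to 0.97; limma adjusted p = 0.00216). Its level is uncertain, since 4482 of its 7319 exon bases (61.2%) are shared on the same strand with the overlapping gene model Gm28635. Gm28635 is listed with 0 reads in every library, and the sources used here do not give how reads falling in 2 genes were counted.

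Catenin transcripts were set against Cdh1 per kb of exon in each library, a description added after the values were seen. Ctnna1 stood at 0.659 to 0.747 times the level of Cdh1 in the 4T1 libraries and at 56.0 to 80.8 times in the 4TO7 libraries. Ctnnb1, beta-catenin, stood at 1.86 to 2.27 times in 4T1 and 144 to 181 times in 4TO7. Jup, which can take the place of beta-catenin on the cadherin tail, stood at 0.210 to 0.292 times in 4T1 and 6.31 to 12.1 times in 4TO7. Ctnnd1 stood at 0.0839 ± 0.0080 times in 4T1 and 6.11 ± 1.32 times in 4TO7. Divided by the 2.84 kb of exon that Ctnnd1 does not share with Gm28635, those ratios were 0.216 ± 0.0207 and 15.8 ± 3.40. Between the lines, Cdh1 itself differed 114-fold and the catenins 1.16-fold (Ctnna1) to 2.93-fold (Jup). The separation of the ratios therefore restates the difference in Cdh1. The exact permutation test of the ratios gave p = 0.1 for each catenin, which full separation of 3 against 3 always gives.

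**Figure D4:**
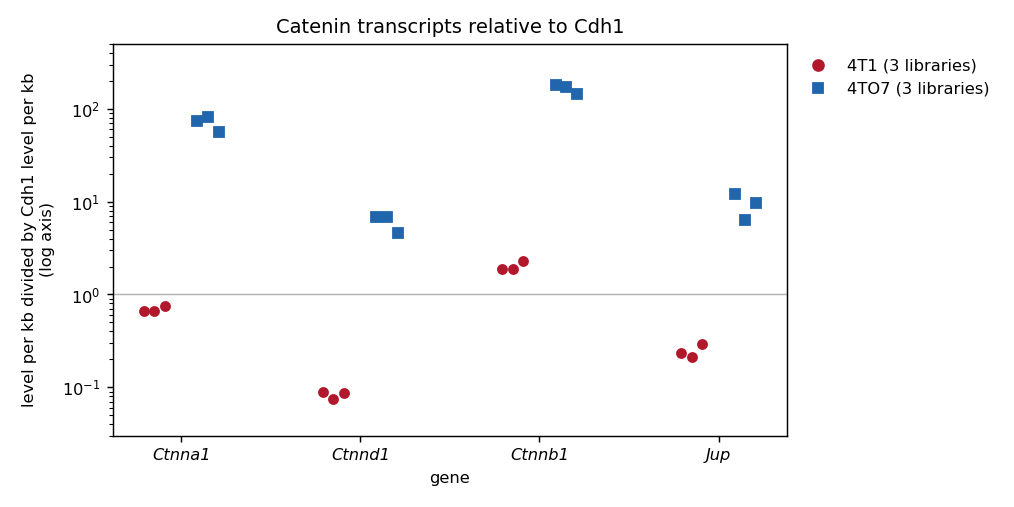
Each point is 1 library (red circles 4T1, blue squares 4TO7), and the vertical log axis gives the level per kb of exon of a catenin divided by that of Cdh1. Ctnna1 lies between 0.659 and 0.747 in 4T1 and between 56.0 and 80.8 in 4TO7, and the other 3 catenins lie apart likewise, which restates the difference in Cdh1.

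Among 18 other catenins and actin linkers, 15 were tested: 7 passed toward 4T1, 3 toward 4TO7 and 5 in neither direction (median log2 fold change 0.27). The shares over all genes tested were 25.1% toward 4T1 and 23.9% toward 4TO7. Ctnnb1 had 37417, 45506 and 49432 normalised counts in 4T1 and 30588, 26904 and 36057 in 4TO7, without overlap, a 1.41-fold difference with limma adjusted p = 0.0304. That call was lost with equal totals per sample (adjusted p = 0.0797), which lowers the median log2 fold change of all genes from 0.03 to -0.10, and with quantile normalisation (0.178). It was also lost in limma without trend or robust hyperparameters (0.0609) and without 4T1 replicate 2 (0.0887), 4T1 replicate 3 (0.113), 4TO7 replicate 1 (0.0867) or 4TO7 replicate 2 (0.0535). Jup was 2.93-fold higher in 4T1, with 6641 ± 1141 against 2268 ± 929 (limma adjusted p = 0.00319), and 4TO7 replicate 2, at 1237, was the lowest library. Shroom3, which recruits the contractile machinery to apical junctions, was 10.9-fold higher in 4T1 at 1394 ± 90.6 against 127 ± 32.1. Ajuba, a LIM protein at junctions, was 2.47-fold higher in 4T1. Ctnnal1, an alpha-catenin relative, went the other way, 2.32-fold higher in 4TO7 at 13874 ± 2445. Vcl, vinculin, which binds alpha-catenin under tension, had 8206 ± 1256 and 9366 ± 685 and did not pass (limma adjusted p = 0.294).

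Among 14 genes of cadherin turnover and phosphorylation, 13 were tested: 6 passed toward 4T1, 2 toward 4TO7 and 5 in neither direction (median log2 fold change 0.15). Over all genes tested, 25.1% passed toward 4T1 and 23.9% toward 4TO7. The receptor phosphatases Ptprf and Ptprk, which act on junction proteins, were 15.2-fold and 5.38-fold higher in 4T1, Ptprf at 7316 ± 794 against 481 ± 140 (limma adjusted p = 3.3e-06). The receptor phosphatase Ptprm, not tested and named here after its values were seen, lay the other way. It had 0, 0 and 1 reads in 4T1 and 14, 4 and 10 in 4TO7. Dnm2, a dynamin of endocytosis, was 2.12-fold higher in 4T1. Adam10, a protease that sheds the ectodomain of E-cadherin, was 2.01-fold higher in 4TO7 at 14362 ± 1530 against 7134 ± 1579 (limma adjusted p = 0.00235).

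**Figure D5:**
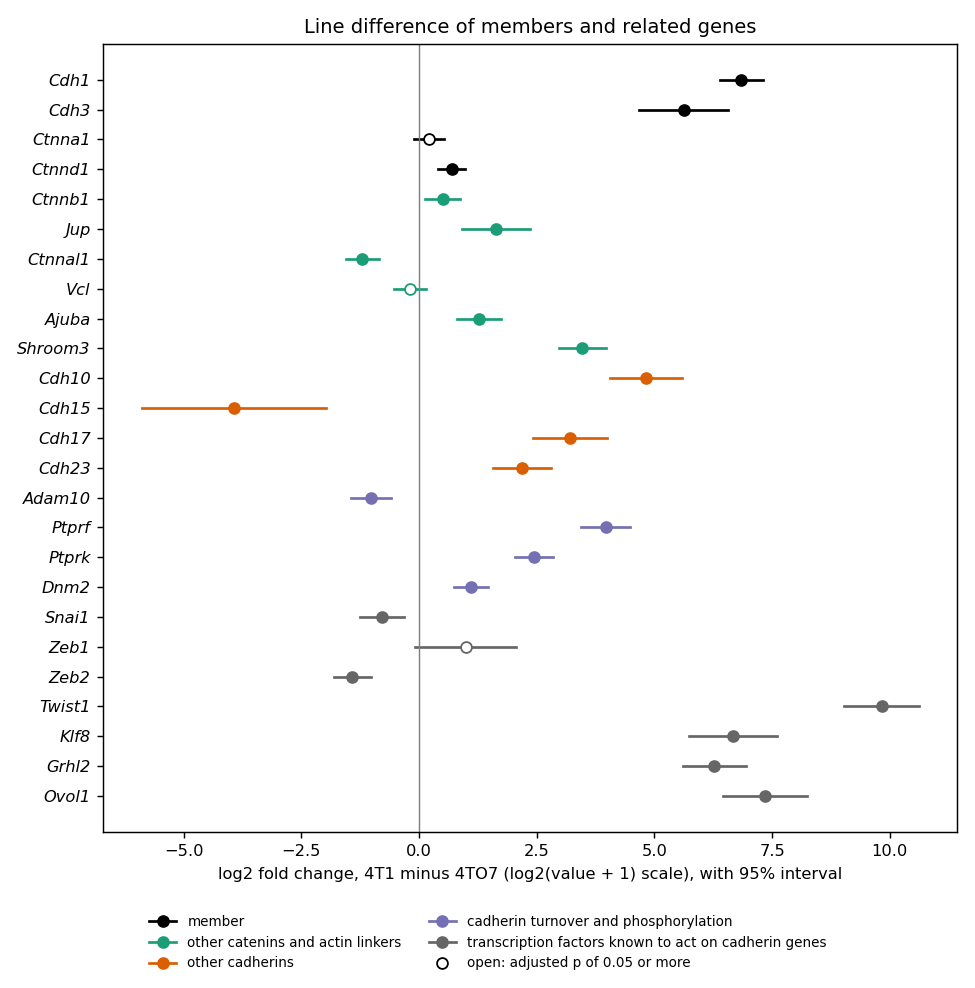
Points are limma log2 fold changes, 4T1 minus 4TO7, with 95% intervals, for the tested members (black) and the named genes of the 4 related lists. Filled points passed at an adjusted p under 0.05, and Ctnna1, Vcl and Zeb1 are open. Cdh1 and Cdh3 lie far to the right of the catenins.

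Of 15 transcription factors known to act on cadherin genes, 13 were tested: 6 passed toward 4T1, 4 toward 4TO7 and 3 in neither direction (median log2 fold change 0.99). Twist1, Klf8, Ovol1 and Ovol2 met the filter through 4T1 alone and had to differ. Of the other 9, 2 passed toward 4T1, 4 toward 4TO7 and 3 in neither direction, with a median of -0.35. The shares over all genes tested were 25.1% toward 4T1 and 23.9% toward 4TO7. Grhl2, an activator of Cdh1 in epithelia, was 75.8-fold higher in 4T1 at 2418 ± 160 against 31.9 ± 13.0 (limma adjusted p = 1.09e-06). Klf4, also known to activate Cdh1 and named here after its values were seen, was 5.08-fold higher in 4TO7 at 3560 ± 1066 against 701 ± 47.4 (limma adjusted p = 7.66e-05). Klf8, known as a repressor of Cdh1, had 133 ± 37.2 in 4T1. Its single 4TO7 read lay in replicate 2, a read ratio of 403 (exact 95% interval 71.9 to 15941). Among the other repressors, Snai1 was 1.74-fold higher in 4TO7 at 1208 ± 236 against 692 ± 127 (limma adjusted p = 0.0123), and Zeb2 2.63-fold higher in 4TO7. Zeb1 had 29.3 ± 11.9 and 14.9 ± 8.07 (limma adjusted p = 0.113). Snai2 had 5 reads in 4T1 and none in 4TO7. Twist1 stood at 1155 ± 114 across the 4T1 libraries, and its only 4TO7 read fell in replicate 2. Ovol1, which is not counted among these repressors, averaged 209 ± 62.7 over the 4T1 libraries. The only Ovol1 read of 4TO7 fell in replicate 1.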

How the data were processed

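Total RNA of 3 libraries per line was sequenced. The submitters' processing notes name GRCm38, STAR 2.5, featureCounts 1.5 and DESeq2; annotation release and strandedness are not given in the sources used here. The deposited signal is each gene's reads scaled by a library size factor, per the file headers. Within a library all nonzero values were multiples of the same step (within 1e-06), taken as 1 read. The authors' comparison, log2 fold changes, a test score, p-values and adjusted p-values, is quoted where named.

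limma 3.58.1 in R 4.3.3 (trend, robust, group alone) was fitted to log2(value + 1) of genes at 10 or more in at least 3 libraries, at a threshold of 0.05, after a check on simulated data. Folds are ratios of line means; intervals and the floor of 3 reads cover counting error. Exact permutation tests used SciPy 1.17.1. Exon lengths and positions are from GENCODE M21 (GRCm38). The members and lists were chosen with earlier results of these data known. Named are all members, up to 4 called and non-overlapping genes per related list, the 5 nearest patterns and 8 fixed genes (Ctnnb1, Jup, Vcl, Snai1, Snai2, Zeb1, Zeb2, Twist1). Alternatives changed pseudocount, filter, scaling, variance model, libraries and replicate block.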

Additional observations from a re-analysis of the deposited data

How the results depend on the processing

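The count of members called higher in 4T1 stayed at 3 and that of members called higher in 4TO7 at 0 under all 14 alternatives but a filter at 50, which removes Cdh3 and left 2. Leaving out 1 library gave 3 and 0 each time, and 2751 to 4162 genes higher in 4T1 and 2491 to 3902 higher in 4TO7 over all genes. The log2 fold change of Cdh1 ranged from 6.72 to 7.05 and that of Ctnnd1 from 0.56 to 0.71, both called throughout. Ctnna1 ranged from 0.03 to 0.32 and was never called (adjusted p 0.0568 to 0.853). Zfp90 and Gm10073 changed sign with equal totals per sample (-0.095 and -0.042), Zfp90 also without 4T1 replicate 3 (-0.015) or 4TO7 replicate 2 (-0.050) and Gm10073 without 4T1 replicate 1 (-0.065), all uncalled. Over the libraries left out they ranged from -0.050 to 0.095 and from -0.065 to 0.20, and the cause was not tested. With 1 library left out, the difference in the share of Cdh13, which rests on 1 read, ranged from -0.12 to 0 percentage points. The difference in the share of Cdh1 was 2.00 percentage points, 2.69 without division by length, 1.92 without Cdh13 and 62.0 over 23 cadherins. With the replicate number as a block, 3990 and 3760 genes were called against 3585 and 3412, and no member's call changed; same-numbered libraries deviated together at r = -0.01, 0.27 and 0.33, and not every library correlated best with its own number, so the numbers were not taken as pairs. The planned count-model tests were not run. Depth limits the members with fewer than 20 reads per line.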
